A study of Mus musculus with 6 samples.

Results

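Myod1 encodes MyoD, a basic helix-loop-helix (bHLH) transcription factor of the skeletal muscle lineage, and is 1 of the 54532 named genes in a count table of Gmppb-knockout and wild-type C2C12 cells. It was chosen by its read counts in these same libraries, near 0 in one genotype and high in the other, so its own difference between the groups is described here and not tested. The 39 named genes whose annotated start lies within 500 kb of the Myod1 start on chromosome 7 were taken as its local context. Gmppb encodes the catalytic subunit of GDP-mannose pyrophosphorylase, which makes the mannose donor used in protein glycosylation, and the submitters state that the cells were made to study its influence on muscle development.

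C2C12 is an established line of mouse myoblasts, the proliferating precursors that fuse into muscle fibres. In the Gmppb-KO group (genotype Gmppb-KO, 3 libraries), cells had received Cas9 plasmids with guide RNAs to exons 1 and 5 of Gmppb, carried by PX458-GFP and PX459-puromycin, had been selected in 4 µg/ml puromycin for 2 days and were grown from single cells. The wild-type group (genotype wild-type, 3 libraries) was the unedited line with no treatment given. Both groups were cultured for 2 days before total RNA was extracted; the culture medium is not stated. The labels do not say whether the 3 Gmppb-KO libraries came from 1 clone or several, nor whether wild-type cells had been transfected, selected or cloned, so genotype, selection and descent from a single cell cannot be told apart. Nothing says that replicates were separate cultures, and the spread behind every p-value is that between these libraries, which may be technical.

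MyoD binds DNA at E boxes, short motifs read CANNTG, as a dimer with a ubiquitous E protein, while Id proteins compete for the same partners. With Myf5 it commits cells to the muscle lineage, and with myogenin (Myog) and Mef2 factors it switches on the genes of muscle fibres. Forced expression of MyoD turns fibroblasts into muscle cells, and proliferating C2C12 myoblasts normally express it.

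Myod1 (ENSMUSG00000009471) lies at chr7:46376474-46379099 on the plus strand of GRCm38 (mm10). The annotation gives 1 transcript with 3 exons and 1861 exon bases, which encodes 318 codons, and no other gene of the table overlaps it. The coding bases below, positions 301 to 450 from the start codon (exon 1, chr7:46376973-46377122, plus strand), cover the part most alike between Myod1 and its relatives. Capitals mark its longest identical runs with the other myogenic bHLH genes, which are 26 bases with Myf5 (positions 331 to 356), 21 with Myog (370 to 390) and 14 with Myf6 (433 to 446).
Myod1 coding stretch: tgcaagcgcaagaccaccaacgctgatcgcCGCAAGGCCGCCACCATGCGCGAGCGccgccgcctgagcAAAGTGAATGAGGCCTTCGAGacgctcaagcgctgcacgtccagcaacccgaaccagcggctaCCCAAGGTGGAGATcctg
Among 141767 annotated transcripts, the longest run that any gene shared with the Myod1 transcript was that of Myf5. The next was Lrtm1, with 23 bases. How the authors assigned reads that match several genes is not stated in the sources.

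The guide RNAs that define the Gmppb-KO group follow, with the adjacent NGG motif that Cas9 needs in capitals.
Gmppb exon 1 guide: gagcactccgaagccattggTGG
Gmppb exon 5 guide: agagccttccaagtatggtgTGG
Both guides matched a Gmppb transcript with 0 mismatches. Next to an NGG motif in the Myod1 transcript, the closest site had 10 mismatches to the exon 1 guide and 9 to the exon 5 guide. Introns and flanking DNA of Myod1 were not searched.

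Across the series, named genes received 17616250 to 18566759 counts in Gmppb-KO libraries and 16011021 to 17964344 in wild-type libraries. CPM below are counts scaled to a common library size, with the trimmed mean of M values (TMM). Of 12786 genes with enough counts to be tested, 297 (2.32%) were higher and 418 (3.27%) lower in Gmppb-KO libraries at an adjusted p under 0.05 (edgeR quasi-likelihood test, Benjamini-Hochberg adjustment), or 5.59% in all. The total was 331 without wild-type replicate 1, 444 without wild-type replicate 2 and 397 without Gmppb-KO replicate 2. The median log2 fold change over tested genes was 0.11. Gmppb itself had 20.6, 16 and 13 CPM in Gmppb-KO libraries, against 18.1, 20.9 and 23.9 CPM in wild-type libraries (log2 fold change -0.34 ± 0.26 SE, edgeR adjusted p = 0.459). Reads of Gmppb outside the edited bases still count, so its level is a weak check of the genotype.

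Myod1 transcripts were nearly absent from Gmppb-KO cells. The gene had 6, 10 and 10 reads in the Gmppb-KO libraries (95% exact Poisson intervals 2.2 to 13.1, 4.8 to 18.4 and 4.8 to 18.4, covering counting error only), against 2689, 2418 and 2596 reads in the wild-type libraries. Every Gmppb-KO library lay far below every wild-type library, and no Gmppb-KO library was without a read. In CPM, Myod1 stood at 0.326, 0.560 and 0.471 in Gmppb-KO libraries (mean 0.453 ± 0.118 SD, n = 3), against 160, 163 and 152 in wild-type libraries (158 ± 5.76 SD, n = 3). The fitted log2 fold change was -8.43 ± 0.27 (SE), or 344-fold lower in Gmppb-KO cells, which left 0.286% of the wild-type mean. The authors' deposited table gives a log2 fold change of -8.52 for the gene. These values are among those that chose the gene and carry no test. In bulk RNA, fewer cells that express Myod1 and less Myod1 RNA per cell cannot be told apart.

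**Figure D1:**
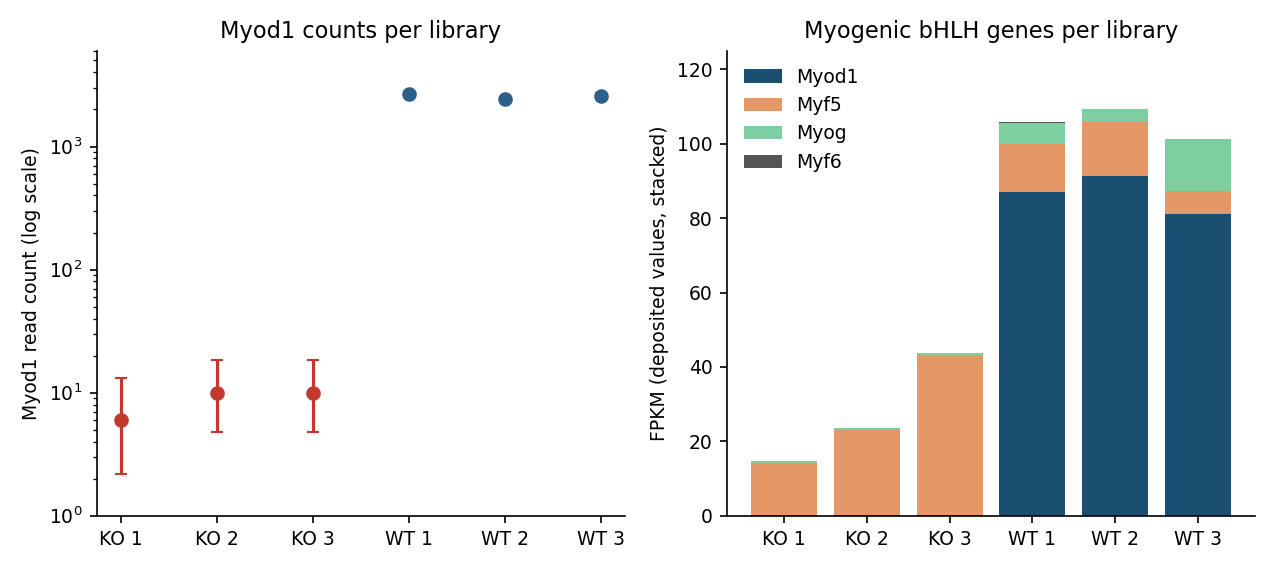
Left, Myod1 reads in each library on a log scale, with 95% exact Poisson intervals that are narrower than the points in wild-type libraries; the 3 Gmppb-KO libraries (KO) hold 6 to 10 reads and the 3 wild-type libraries (WT) 2418 to 2689. Right, deposited FPKM of the 4 myogenic bHLH genes stacked per library, where Myod1 makes up most of each wild-type bar and Myf5 most of each Gmppb-KO bar.

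Among genes with at least 100 CPM in wild-type cells, no other was left at so low a level. This comparison uses the values that chose Myod1. Of 1957 tested genes with a wild-type mean of at least 100 CPM, Myod1 alone averaged under 1 CPM in Gmppb-KO libraries. Under 10 CPM there were 5 genes, named here after their values were seen: Myod1, the PDZ-LIM gene Pdlim3, the haemoglobin gene Hba-a1, the collagen XVIII gene Col18a1 and the extracellular superoxide dismutase gene Sod3. Of these, Pdlim3 came next by size of difference, with 2.82 ± 0.129 CPM in Gmppb-KO libraries and 131 ± 24.7 CPM in wild-type libraries (SD, n = 3 each), a 46.4-fold difference. Just under the 100 CPM cutoff, Cck averaged 1.05 ± 0.622 CPM in Gmppb-KO libraries and 95 ± 24.5 CPM in wild-type libraries (91.4-fold). Slc16a11 averaged 1.37 ± 0.396 CPM in Gmppb-KO libraries and 97.4 ± 26.2 CPM in wild-type libraries (70.4-fold). Both falls were larger than that of Pdlim3. Over all tested genes at any level, Myod1 had the 9th lowest log2 fold change.

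FPKM adjusts for exon length, so that genes can be set side by side. How the deposited FPKM were scaled between libraries is not stated, and total counts alone do not reproduce them. Wild-type replicate 2 had fewer Myod1 reads and more total counts than wild-type replicate 1, yet a higher FPKM. By FPKM, Myod1 was at 0.174, 0.292 and 0.241 in Gmppb-KO libraries (0.236 ± 0.0589 SD, n = 3). In wild-type libraries it was at 87, 91.2 and 81.2 FPKM (86.5 ± 5.03 SD, n = 3). Its mean ranked 12888 of 54532 named genes in Gmppb-KO cells and 858 of 54532, in the top 1.57%, in wild-type cells. The rank lay between 12327 and 13007 in single Gmppb-KO libraries and between 761 and 953 in single wild-type libraries. On the wild-type scale its nearest neighbours were Asb5, an ankyrin-repeat gene, with 135 ± 18.4 FPKM in Gmppb-KO cells and 86.5 ± 5.58 in wild-type cells, and the tRNA-splicing gene Tsen34, with 74.5 ± 27.3 FPKM in Gmppb-KO cells and 86.5 ± 8.72 FPKM in wild-type cells. Both were picked for their wild-type mean, so their likeness to Myod1 there follows from the choice. Neither passed the test between genotypes (edgeR adjusted p = 0.0732 and 0.754).

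Within the 1469 named rows that the table assigns to a transcription factor family, Myod1 ranked 790 in Gmppb-KO cells and 13 in wild-type cells by mean FPKM. In single wild-type libraries its place was 12, 15 and 11. Among the 100 bHLH rows it ranked 43 in Gmppb-KO cells and 2 in wild-type cells. The bHLH gene above it in wild-type cells was Scx, encoding the tendon factor scleraxis, at 77 ± 19.3 FPKM in Gmppb-KO cells and 135 ± 20.8 FPKM in wild-type cells. Scx did not pass the test (log2 fold change -0.74 ± 0.24 SE, edgeR adjusted p = 0.129).

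Transcription factor genes as a class did not share the pattern of Myod1. Of the other 835 tested, 12 were higher and 24 lower, or 4.31%, beside 5.59% of all tested genes, and their median log2 fold change was 0.24 beside 0.11. A lower fitted log2 fold change than that of Myod1 was found for 2 of them, Peg3, an imprinted zinc-finger gene, and Bcl6b, a BTB zinc-finger repressor. Peg3 averaged 0 CPM in Gmppb-KO libraries and 21.8 ± 9.20 CPM in wild-type libraries, and Bcl6b averaged 0 CPM in Gmppb-KO libraries and 3.06 ± 0.415 CPM in wild-type libraries, so both started from a lower wild-type level than Myod1. With 0 reads in a group, the fitted fold change depends on the prior count and gives no bound.

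**Figure D2:**
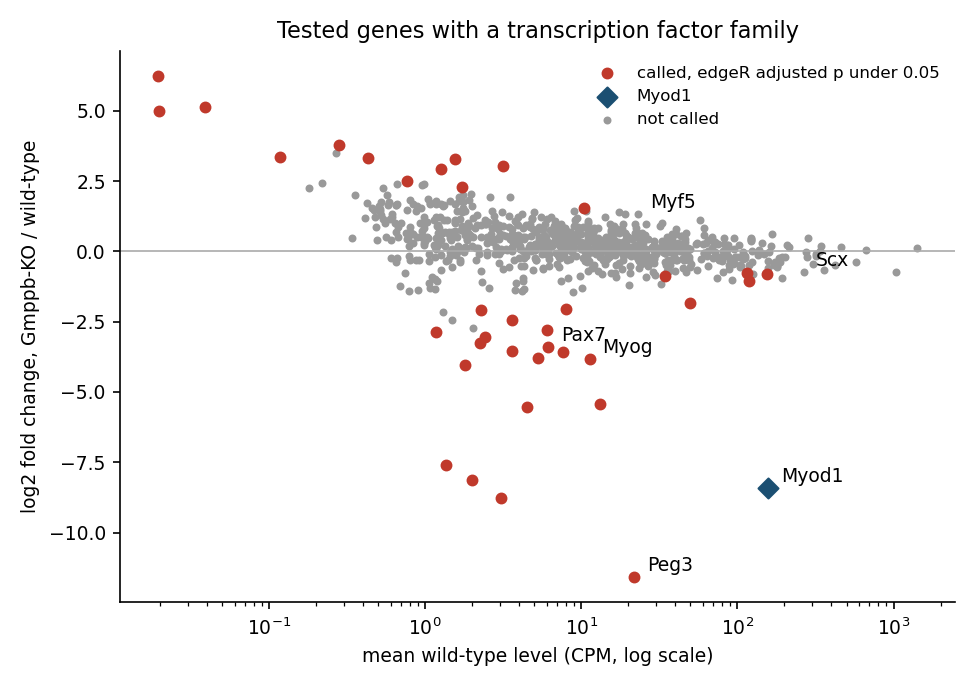
Log2 fold change (Gmppb-KO over wild-type) of the 836 tested genes with a transcription factor family, Myod1 included, against their mean wild-type CPM on a log scale. Red points passed the edgeR test at an adjusted p under 0.05; Myod1, the blue diamond, stands alone at 158 CPM and -8.43, while Peg3 lies lower at 21.8 CPM.

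The level of Myod1 varied little among wild-type libraries. Its coefficient of variation over the 3 wild-type libraries was 3.64% in CPM, against 1.97% from counting error alone. The 200 tested genes nearest in wild-type level (146 to 172 CPM) had a median of 16.6%, and 7 of them (3.5%) varied less than Myod1. Without wild-type replicate 3 the coefficient was 1.51%, and in FPKM it was 5.81%. The share of like genes that varied less was 11% in FPKM, and 13.5%, 13% and 9.5% without wild-type replicate 1, 2 and 3. In Gmppb-KO libraries the coefficient was 26.1%, below the 34% that counting error gives at 6 to 10 reads, so variation between those libraries was not detectable at this depth.

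The myogenic bHLH family holds 4 genes, and in these cells the balance among them differed between genotypes. Summed FPKM of Myod1, Myf5, Myog and Myf6 came to 14.6, 23.6 and 43.7 in Gmppb-KO libraries, against 106, 109 and 101 in wild-type libraries. Myod1 made up 1.19%, 1.24% and 0.552% of that sum in Gmppb-KO libraries, against 82.1%, 83.5% and 80.1% in wild-type libraries. Myf5, the other factor of muscle commitment, made up 95.1%, 96.1% and 98% in Gmppb-KO libraries, against 12.2%, 13.5% and 6.06% in wild-type libraries. Shares of one sum move together, so that of Myf5 was high wherever that of Myod1 was low. Because Myod1 was chosen by its values in these libraries, the difference in sums and shares largely follows from that choice and carries no test.

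The level of Myf5 itself did not pass the test. Myf5 had 29.2, 48.7 and 93.7 CPM in Gmppb-KO libraries, against 26.7, 29.4 and 12.9 CPM in wild-type libraries. The groups overlapped, with Gmppb-KO replicate 1 just under wild-type replicate 2, and the log2 fold change was 1.32 ± 0.46 (SE, edgeR adjusted p = 0.168). Myog, which drives the entry of myoblasts into differentiation, fell to 0.816, 0.784 and 0.754 CPM in Gmppb-KO libraries, against 8.31, 4.79 and 20.9 CPM in wild-type libraries. All 3 Gmppb-KO values were low and nearly equal, while wild-type values were higher and scattered (log2 fold change -3.84 ± 0.59 SE, edgeR adjusted p = 0.00732). Myf6, known as Mrf4, had 7 reads in all Gmppb-KO libraries together and 10 in all wild-type libraries, under the count filter of the test.

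The genes for the DNA-binding partners of MyoD were expressed in both genotypes. None of the 3 E protein genes passed the test by edgeR, DESeq2 or limma voom, beside 5.59%, 10.5% and 5.53% of all tested genes. An unadjusted p under 0.05 was reached by 0 of the 3, beside 20.1%. With 3 genes, a count of 0 cannot be told from those shares. Libraries of the genotypes did not overlap for 1 of the 3, Tcf3, which was lower in Gmppb-KO libraries, beside 13% of all tested genes lower in this way. Tcf3, which encodes E12 and E47, averaged 176 ± 6.09 CPM in Gmppb-KO cells and 203 ± 10 CPM in wild-type cells (log2 fold change -0.20 ± 0.17 SE, edgeR adjusted p = 0.497). Tcf12 averaged 49.3 ± 25.8 CPM in Gmppb-KO cells and 37.9 ± 14.2 CPM in wild-type cells. Tcf4 averaged 14.2 ± 11.1 CPM in Gmppb-KO cells and 14.5 ± 1.78 CPM in wild-type cells. Its near-equal means hid 7.51, 8.01 and 27 CPM in Gmppb-KO libraries, against 15.6, 12.5 and 15.6 CPM in wild-type libraries. Gmppb-KO replicate 3 was the highest library for both genes, at 78.7 CPM for Tcf12. A p above the threshold does not show that these levels were equal.

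Of 16 tested inhibitory HLH and repressor genes, 1 was lower and 0 higher (6.25%, beside 5.59% of all tested genes), and their median log2 fold change was -0.20 beside 0.11. The gene that fell was Heyl, a Notch-induced repressor, with 0.621 ± 0.105 CPM in Gmppb-KO cells and 7.60 ± 4.22 CPM in wild-type cells (log2 fold change -3.59 ± 0.50 SE, edgeR adjusted p = 0.00461). Id3, which sequesters E proteins, averaged 157 ± 39.6 CPM in Gmppb-KO cells and 122 ± 15.6 CPM in wild-type cells and did not pass (edgeR adjusted p = 0.399). Hes6, an antagonist of Hes1, averaged 62.9 ± 18.3 CPM in Gmppb-KO cells and 87.7 ± 12.5 CPM in wild-type cells and did not pass either (edgeR adjusted p = 0.327). An unadjusted p under 0.05 was reached by 8 of the 16, beside 20.1% of all tested genes, and DESeq2 called 5, beside 10.5%. The edgeR count was 2 without wild-type replicate 3 and 2 without Gmppb-KO replicate 1.

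Among 22 tested regulators that act upstream of Myod1 in muscle or other tissues, 3 were lower and 0 higher (13.6%, beside 5.59%), and the median log2 fold change was 0.09. Pitx3, a homeobox gene of the muscle lineage, had 0.109, 0.168 and 0 CPM in Gmppb-KO libraries, against 5.29, 4.45 and 3.69 CPM in wild-type libraries (log2 fold change -5.55 ± 0.70 SE, edgeR adjusted p = 0.00319). Pax7, the satellite cell factor, had 1.03, 0.224 and 0.471 CPM in Gmppb-KO libraries, against 6.83, 5.20 and 6.44 CPM in wild-type libraries (log2 fold change -3.40 ± 0.54 SE, edgeR adjusted p = 0.00867). Both were low in every library of either genotype beside the wild-type level of Myod1, and their groups did not overlap. The most abundant regulators that did not pass were the nuclear factor I genes Nfic (298 ± 44.8 CPM in Gmppb-KO cells and 318 ± 53.8 in wild-type cells) and Nfix (103 ± 19 CPM in Gmppb-KO cells and 156 ± 10.8 in wild-type cells), and the β-catenin gene Ctnnb1 (202 ± 79.3 CPM in Gmppb-KO cells and 111 ± 83.9 in wild-type cells).

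Of 39 cofactor and chromatin genes tested, 1 was lower and 0 higher (2.56%, beside 5.59%), with a median log2 fold change of 0.28. Vgll2, a muscle cofactor of TEAD proteins that is also on the target list, fell to 10.7, 11 and 12 CPM in Gmppb-KO libraries, against 73.8, 60 and 72.6 CPM in wild-type libraries (log2 fold change -2.62 ± 0.20 SE, edgeR adjusted p = 0.000371). A count of 2 was reached without Gmppb-KO replicate 1. The arginine methyltransferase Prmt1 averaged 473 ± 142 CPM in Gmppb-KO cells and 615 ± 143 CPM in wild-type cells. The RNA helicase Ddx5 averaged 413 ± 197 CPM in Gmppb-KO cells and 276 ± 71.8 CPM in wild-type cells, and the SWI/SNF subunit Smarcb1 averaged 240 ± 66.4 CPM in Gmppb-KO cells and 265 ± 23.7 CPM in wild-type cells. None of those 3 passed the test.

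None of the 14 tested genes for MyoD turnover and Myod1 RNA stability was called by edgeR, beside 5.59% of all tested genes. An unadjusted p under 0.05 was reached by 2 of the 14, beside 20.1% of all tested genes, and DESeq2 and limma voom called 1 each, beside 10.5% and 5.53%. The count was 1 without wild-type replicate 3 and 1 without Gmppb-KO replicate 3, and the median log2 fold change was -0.05. Cdk4, a cyclin D partner that also binds MyoD, averaged 750 ± 188 CPM in Gmppb-KO cells and 987 ± 268 CPM in wild-type cells. The mitotic kinase gene Cdk1 averaged 326 ± 51.8 CPM in Gmppb-KO cells and 331 ± 21.4 CPM in wild-type cells, and the RNA-binding protein gene Pcbp2 averaged 257 ± 19.6 CPM in Gmppb-KO cells and 262 ± 40.4 CPM in wild-type cells.

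Many genes listed as targets of MyoD from general knowledge were lower in Gmppb-KO cells. Of 82 listed, 65 were tested, and 34 were lower and 0 higher, or 52.3%, where 3.27% of all tested genes were lower. Their median log2 fold change was -1.45, beside 0.11 over all tested genes, and 49 of 65 had an unadjusted p under 0.05, beside 20.1%. Without wild-type replicate 1 the count was 22, and with a filter at 10 CPM it was 19. The list was written with earlier results of these data known, and many of its members are textbook genes of differentiated muscle.

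Chrnd, the receptor's delta subunit, fell to 10.3, 10.6 and 9.10 CPM in Gmppb-KO libraries, against 108, 112 and 115 CPM in wild-type libraries (log2 fold change -3.48 ± 0.19 SE, edgeR adjusted p = 9.99e-05). Mymk, the fusion protein myomaker, fell to 0.870, 1.23 and 1.18 CPM in Gmppb-KO libraries, against 21, 23.9 and 21.8 CPM in wild-type libraries (log2 fold change -4.34 ± 0.30 SE, edgeR adjusted p = 0.000312). Libraries of a genotype lay close together for both genes, and the genotypes did not overlap. Mylpf, the fast myosin light chain, had 2.94, 3.53 and 1.98 CPM in Gmppb-KO libraries, against 51.7, 55.9 and 38.9 CPM in wild-type libraries (log2 fold change -4.12 ± 0.31 SE). The fast troponin I gene Tnni2 had 0.272, 0.112 and 0.189 CPM in Gmppb-KO libraries, against 9.62, 11.5 and 8.37 CPM in wild-type libraries (log2 fold change -5.63 ± 0.44 SE). The Notch ligand gene Jag2 averaged 9.76 ± 0.697 CPM in Gmppb-KO cells and 57.5 ± 4.65 CPM in wild-type cells (log2 fold change -2.56 ± 0.20 SE), and all 3 of these had an edgeR adjusted p of 0.000371.

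The most abundant listed targets did not pass the test. Des, encoding the intermediate filament desmin, had 3820, 3751 and 1935 CPM in Gmppb-KO libraries, against 4365, 5122 and 3263 CPM in wild-type libraries (log2 fold change -0.42 ± 0.36 SE, edgeR adjusted p = 0.497). Its groups overlapped, since wild-type replicate 3 lay under Gmppb-KO replicates 1 and 2. The muscle enolase gene Eno3 averaged 754 ± 261 CPM in Gmppb-KO cells and 1541 ± 297 CPM in wild-type cells (edgeR adjusted p = 0.13). Integrin α7 (Itga7) averaged 399 ± 33.9 CPM in Gmppb-KO cells and 683 ± 42.9 CPM in wild-type cells (edgeR adjusted p = 0.0668). For Eno3 and Itga7, every Gmppb-KO library lay below every wild-type library. Of the 65 tested targets, 46 were lower in this way, beside 13% of all tested genes.

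**Figure D3:**
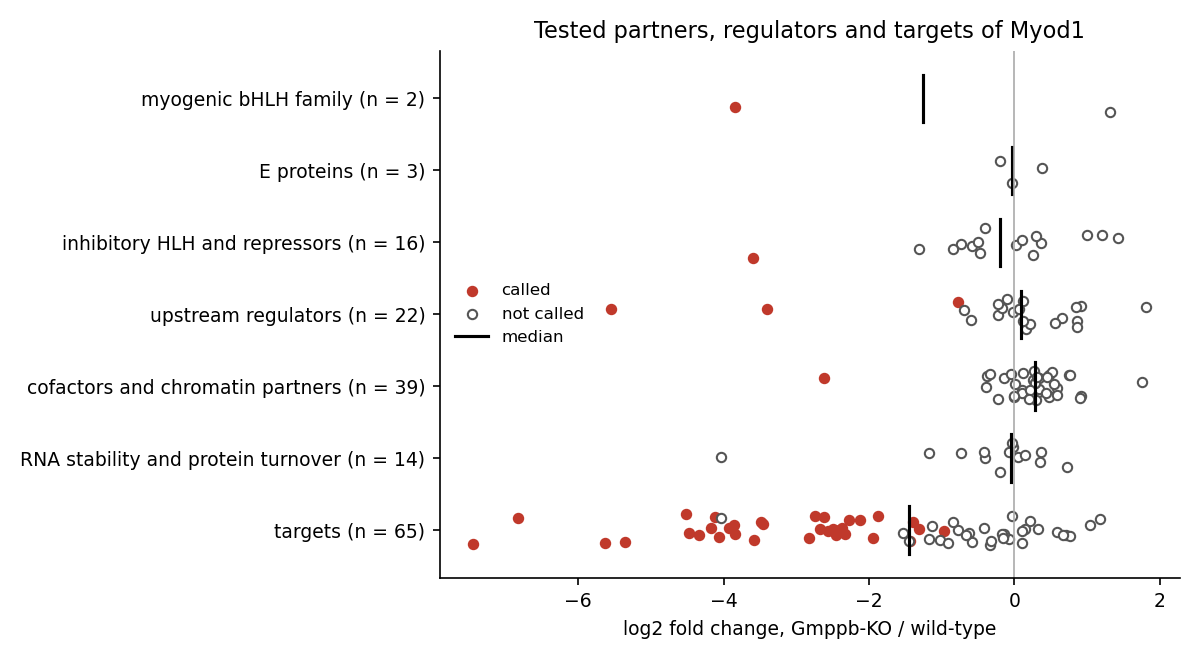
Log2 fold change (Gmppb-KO over wild-type) of every tested member of 7 lists of genes that work with, upstream of or downstream of Myod1, with 1 point per gene and a bar at each median. Filled points passed the edgeR test at an adjusted p under 0.05. Of the targets, 34 of 65 did, all lower, and of the E proteins 0 of 3, beside 5.59% of all tested genes.

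Windows of 250 bases before the start of transcription, from RefSeq (GRCm38.p6), are shown for 3 called genes of the named target set. These and Jag2 were picked by hand, and windows of Chrnd, Mymk and Tnni2, also called, are not shown. Capitals mark each CANNTG, which reads the same motif on both strands. Myog had matches at -138 (CACATG) and -12 (CAGTTG) relative to its start, Mylpf had CAGCTG at -51, and Vgll2 had CACGTG at -246.
Myog, chr1:134289754-134290003, plus strand: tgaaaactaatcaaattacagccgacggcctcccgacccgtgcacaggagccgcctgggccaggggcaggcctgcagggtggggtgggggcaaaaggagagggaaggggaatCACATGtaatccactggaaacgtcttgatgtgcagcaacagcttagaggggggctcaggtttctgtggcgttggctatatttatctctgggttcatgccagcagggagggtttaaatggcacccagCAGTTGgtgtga
Mylpf, chr7:127211358-127211607, plus strand: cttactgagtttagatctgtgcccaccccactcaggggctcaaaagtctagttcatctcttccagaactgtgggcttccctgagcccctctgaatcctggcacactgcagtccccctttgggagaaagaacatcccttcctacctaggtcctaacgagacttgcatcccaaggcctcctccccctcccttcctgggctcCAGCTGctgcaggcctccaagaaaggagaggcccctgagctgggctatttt
Vgll2, chr10:52022252-52022501, plus strand: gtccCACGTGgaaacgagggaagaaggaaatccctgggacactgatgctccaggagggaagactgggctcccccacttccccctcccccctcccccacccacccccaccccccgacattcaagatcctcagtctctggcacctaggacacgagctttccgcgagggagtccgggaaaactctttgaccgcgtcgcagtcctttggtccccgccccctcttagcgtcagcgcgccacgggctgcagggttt
The window of Jag2 held no CANNTG.

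Over windows that ran from 250 bases before to 50 after the start, CANNTG was found in 90.3% of 31 windows of 25 targets called lower and in 70.6% of 34 windows of 24 tested targets not called, beside 62.9% of 11941 windows of tested genes and 72.3% of all 32851 windows. CAGCTG, a form of CANNTG, was found in 45.2% of the windows of targets called lower, in 29.4% of those of targets not called in 15.4% of those of tested genes and in 16.3% of all windows. CAGGTG or its complement CACCTG, another form, was found in 38.7% of the windows of targets called lower, in 20.6% of those of targets not called in 17% of those of tested genes and in 20.2% of all windows. A match is a description of the letters and does not show binding.

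Markers of cell types were counted beside Myod1, against 2.32% of all tested genes higher and 3.27% lower. Of 11 tested myoblast markers other than Myod1, 1 (Pax7) was lower and 0 higher, with a median log2 fold change of -0.48. Their summed level ran from 2993 to 4901 CPM in Gmppb-KO libraries and from 4839 to 6705 CPM in wild-type libraries, so the groups overlapped. Most of that sum was Des, with means of 3169 CPM in Gmppb-KO cells and 4250 CPM in wild-type cells. Of the 12 markers with Myod1 included, 6 were lower without overlap of the libraries, Myod1 among them, beside 13% of all tested genes. An unadjusted p under 0.05 (edgeR) was reached by 7 of the 12, again with Myod1, beside 20.1%. All 8 markers of differentiated muscle fell, each also on the target list, with sums of 4.57 to 7.13 CPM in Gmppb-KO libraries and 87.8 to 113 CPM in wild-type libraries. Neural and Schwann markers had 3 lower and 0 higher of 4 tested (226 to 399 CPM in Gmppb-KO libraries and 670 to 744 CPM in wild-type libraries), with Sox10 at 0 in every library.

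Among markers of fibroblasts, adipocytes and other cell types, those that passed the test are named after their values were seen. Fibroblast and fibro-adipogenic markers had 3 higher and 2 lower of 8 tested, with sums of 1171 to 1542 CPM in Gmppb-KO libraries and 1019 to 1155 CPM in wild-type libraries. Mfap5 was 17.4-fold, Dcn 5.11-fold and Clec3b 10.3-fold higher in Gmppb-KO cells, Pdgfrb and Osr1 were lower, and Lum, Tcf21 and Wt1 were at 0 in every library. Adipocyte markers had 2 higher and 0 lower of 4 tested, with sums of 50.4 to 89.5 CPM in Gmppb-KO libraries and 37.8 to 49.2 CPM in wild-type libraries. Lpl was 8.35-fold higher, Fabp4 had 54 reads in all Gmppb-KO libraries together and 0 in wild-type libraries, and Adipoq, Plin1 and Lep were at 0 in every library. The epithelial marker Krt14 was 4.23-fold higher and Cldn3 was lower, of 2 tested. The endothelial and smooth muscle marker Mcam, 1 of 1 tested, was 5.09-fold higher. Of leukocyte markers 0 of 1 tested passed by edgeR, by DESeq2 or by limma voom and 0 had an unadjusted p under 0.05. Pecam1, Cdh5, Emcn, Rgs5, Itgam, Cd3e, Adgre1, Krt18 and Epcam were at 0 in every library. What part other cell types had in the Myod1 difference was not tested.

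The tested genes of the Myod1 neighbourhood were not lower as a whole. Of the 39 neighbours, 18 lay before and 21 after the Myod1 start, 22 were protein coding, 13 had 0 reads in every library and 11 had enough counts to be tested. None of the 11 was called by edgeR, beside 5.59% of all tested genes, and limma voom called 0 as well, beside 5.53%. DESeq2 called 2, Gtf2h1 higher and Ccdc114 lower, and 10.5% of all tested genes. An unadjusted p under 0.05 was reached by 4 of the 11 (36.4%, beside 20.1%), with 2 higher and 2 lower. Libraries of the genotypes did not overlap for 5 of 11, with 3 higher and 2 lower (45.5%, beside 26.1% of all tested genes). The median log2 fold change of the 11 was -0.03, and the range ran from -2.54 to 1.25. Except for 1700025L06Rik, the 11 had transcription starts 263 kb or more from that of Myod1, so they say little about its nearest surroundings.

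The nearest tested neighbour was 1700025L06Rik, a long noncoding RNA on the minus strand that starts 27.1 kb before Myod1. It had 4, 7 and 0 reads in Gmppb-KO libraries, against 20, 22 and 15 reads in wild-type libraries. Each wild-type library had more reads than each Gmppb-KO library, yet the levels were low, with 0.203 ± 0.196 CPM in Gmppb-KO cells and 1.18 ± 0.303 CPM in wild-type cells. The log2 fold change was -2.54 ± 0.83 (SE, edgeR adjusted p = 0.138). Closer on the other side, Kcnc1, a potassium channel gene whose start lies 20 kb after that of Myod1, had 0 reads in all Gmppb-KO libraries, against 0, 4 and 0 reads in wild-type libraries. Otog, which encodes otogelin of the inner ear and starts 135 kb before Myod1, had 1, 2 and 1 reads in Gmppb-KO libraries, against 11, 4 and 7 reads in wild-type libraries, under the count filter of the test.

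Farther away, broadly expressed genes flanked Myod1 on both sides. Before it, Tmem143 averaged 32.7 ± 10.7 CPM in Gmppb-KO cells and 33.3 ± 5.68 CPM in wild-type cells, the membrane protein gene Emp3 averaged 591 ± 209 CPM in Gmppb-KO cells and 927 ± 382 CPM in wild-type cells, and Nomo1, an endoplasmic reticulum gene, averaged 142 ± 18.5 CPM in Gmppb-KO cells and 105 ± 16.7 CPM in wild-type cells. Ccdc114, which encodes a part of the docking complex of cilia, had 0.598, 0.448 and 0.896 CPM in Gmppb-KO libraries, against 2.44, 5.40 and 1.64 CPM in wild-type libraries. Its groups did not overlap (log2 fold change -2.26 ± 0.57 SE, edgeR adjusted p = 0.0603), and edgeR called it without wild-type replicate 3 (adjusted p = 0.0392) or when all genes with more than 1 read were tested (adjusted p = 0.0198).

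After Myod1, the lactate dehydrogenase gene Ldha averaged 3027 ± 889 CPM in Gmppb-KO cells and 3179 ± 436 CPM in wild-type cells, with a log2 fold change of -0.07 ± 0.32 (SE). Sergef, Saal1 and Hps5 had log2 fold changes of 0.08, -0.12 and 0.59, with edgeR adjusted p of 0.923, 0.794 and 0.34. Gtf2h1, a subunit of the general transcription and repair factor TFIIH, had 36.6, 35.4 and 51.4 CPM in Gmppb-KO libraries, against 24.2, 18.6 and 22.2 CPM in wild-type libraries. Every Gmppb-KO library was above every wild-type library (log2 fold change 0.92 ± 0.23 SE, edgeR adjusted p = 0.0636). The pseudogene Gm9392 overlaps Gtf2h1 on the opposite strand, and the library kit does not mark strand, so their reads cannot be told apart. Gm9392 averaged 2.46 ± 0.705 CPM in Gmppb-KO cells and 1.04 ± 0.292 CPM in wild-type cells (edgeR adjusted p = 0.167). Just outside the 500 kb window, Kdelr1 had a log2 fold change of 0.27 ± 0.20 and Tsg101 of -0.08 ± 0.17, and just inside it Tmem143 had -0.03 ± 0.29 and Ldha the value given above, as the tested genes nearest its edges.

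**Figure D4:**
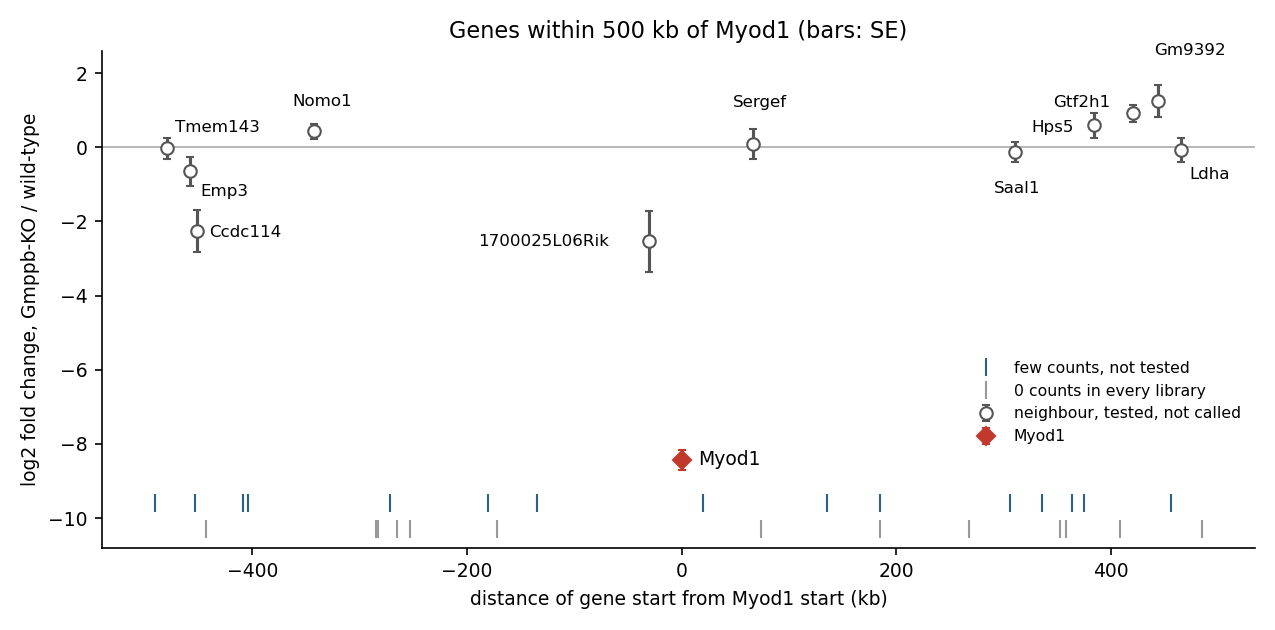
Log2 fold change (Gmppb-KO over wild-type, bars SE) of Myod1 and its 11 tested neighbours against the distance of their annotated start coordinate from that of Myod1; ticks at the bottom mark neighbours with few counts or 0 counts. Neighbours lie between -2.54 and 1.25 and Myod1 at -8.43.

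Genes whose 6 libraries followed Myod1 most closely were sought among 7651 candidates with a wild-type mean of at least 10 CPM and an ordinary symbol. The measure was the root mean square difference between centred log2 CPM profiles, with a prior count of 2. The 8 nearest were Wnt10a (0.25), Ngfr (0.47), Peg3 (0.57), Eva1b (0.64), Cck (1.06), Slc16a11 (1.12), Wnt7b (1.14) and Osbp2 (1.15), in log2 units, and a prior count of 0.5 named the same 8 in another order. Since the gap between genotypes dominates the Myod1 profile, these are genes with a large fall, and no shared control or function follows from it. The falls were not of one size, with 68.2-fold for Osbp2 and a ratio of 1790 for Wnt10a, beside 344-fold for Myod1. The prior count shrinks the gap of genes with reads near 0 in a group, which makes such profiles look more alike.

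Wnt10a, a secreted Wnt ligand, had 0, 0 and 1 reads in Gmppb-KO libraries, against 482, 509 and 527 reads in wild-type libraries. The ratio of wild-type over Gmppb-KO levels was 1790 with a 95% counting interval of 321 to 70732. Ngfr, the p75 neurotrophin receptor, had 0, 3 and 2 reads in Gmppb-KO libraries, against 533, 547 and 416 reads in wild-type libraries, or 329-fold lower. Both were absent or nearly so in every Gmppb-KO library, although their wild-type levels of 31.3 ± 2.88 and 31 ± 6.31 CPM lay below that of Myod1. Peg3 had 0 reads in each Gmppb-KO library, against 413, 171 and 501 reads in wild-type libraries, at least 426-fold lower (3 counts over the Gmppb-KO group as the floor). Eva1b, a membrane protein gene, had 0, 0 and 4 reads in Gmppb-KO libraries, against 461, 438 and 341 reads in wild-type libraries. The hormone gene Cck was 91.4-fold lower in Gmppb-KO cells, the monocarboxylate transporter gene Slc16a11 70.4-fold, the Wnt ligand gene Wnt7b 73.2-fold and the oxysterol-binding gene Osbp2 68.2-fold. Of the 8, Peg3 lies on chromosome 7, as Myod1 does.

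**Figure D5:**
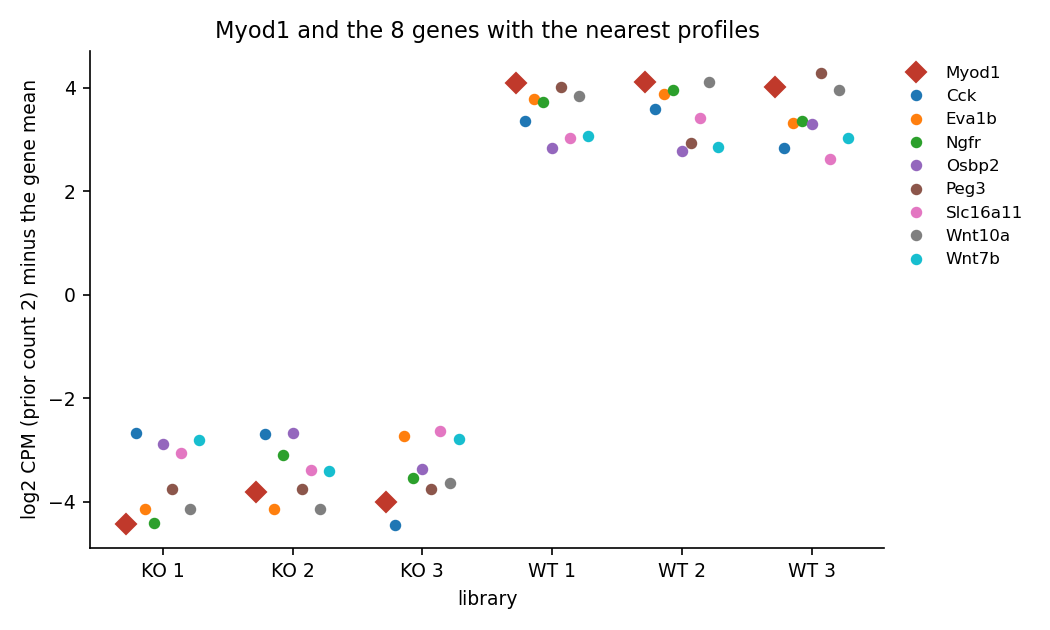
Log2 CPM (prior count 2) of Myod1 (red diamonds) and the 8 genes with the nearest profiles in each library, each minus its own mean over the 6 libraries. Gmppb-KO libraries lie between -4.45 and -2.62 and wild-type libraries between 2.62 and 4.28, with Myod1 at 4.02 to 4.12 in wild-type libraries.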

How the data were processed

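RNA of 3 Gmppb-KO and 3 wild-type C2C12 samples was sequenced from libraries made with the NEBNext Ultra RNA kit, per the labels' protocols. The deposited table gives raw read counts per gene, FPKM values and the authors' log2 fold changes, named in its headers. Alignment and counting tools listed in the submitters' processing notes are HISAT2 and Subread's featureCounts, beside FastQC and DESeq2, on build mm10. Their parameters and strand settings are not stated.

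The main test was that of edgeR 4.0.16 (R 4.3.3) on counts (TMM scaling, default low-count filter, quasi-likelihood test with genotype as the only term, Benjamini-Hochberg adjustment over 12786 genes, threshold 0.05). Standard errors are the log2 fold change divided by the root of F. FPKM were used as deposited, for levels and ranks. Loci without a gene name (201, 0.0699% to 0.195% of counts) were left out, and 0 other per-sample columns existed. Myod1 and the gene lists were chosen with earlier results of these data known. The genes named are Myod1, its tested neighbours, its nearest ranks and profiles, the myogenic and E protein genes, and from each other list up to 6 called genes with the smallest p and up to 3 of the most abundant uncalled. Some genes of the lists are not reported here. Alternatives were DESeq2 1.42.0, limma 3.58.1 voom, other scalings and filters, a replicate block, another prior count and leaving out each library. Promoter windows came from RefSeq (GRCm38.p6), gene models from GENCODE M21. Counting intervals and floors cover counting error only.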

Additional observations from a re-analysis of the deposited data

How the results depend on the processing

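The log2 fold change of Myod1 ran from -8.59 to -8.26 over all alternatives. The number of genes called was 1343 with DESeq2, 284 with a filter at 10 CPM, 1618 with a replicate block and 331 to 749 with 1 library left out. Neighbours called numbered 2 with DESeq2, 1 with a count sum above 1, 2 with the block and 0 to 1 with 1 library left out. Inhibitory genes called numbered 5 with DESeq2, 2 with RLE scaling, 2 with a count sum above 1, 0 at 10 CPM, 4 with the block and 1 to 2 with 1 library left out. Upstream regulators numbered 6 with DESeq2, 1 at 10 CPM, 5 with the block and 2 to 4 with 1 library left out. Cofactors numbered 1 to 2 with 1 library left out. Turnover genes numbered 1 with DESeq2, 1 with voom, 1 with RLE scaling, 1 with a count sum above 1, 2 with the block and 0 to 1 with 1 library left out. Targets numbered 19 at 10 CPM and 22 to 35 with 1 library left out. The wild-type variation of Myod1 was 5.81% in FPKM and 1.51% to 5.05% with 1 library left out, and its rank by CPM was 1237. The cause of these shifts was not tested.

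Of 19 named genes called, 18 stayed called in every alternative that tested them and 1 did not, and none of the 19 changed sign. Sign changes were found in 11 uncalled genes close to 0. With total-library scaling, which moves the median of all genes to 0.27 from 0.11 (RLE 0.03), log2 fold changes were 0.12 for Tmem143, 0.01 for Saal1, 0.08 for Ldha, 0.20 for Tcf4, 0.06 for Nfic, 0.00 for Smarcb1, 0.14 for Cdk1 and 0.12 for Pcbp2. Sergef was at -0.07 with voom and -0.04 with the block. With 1 library left out, values ran from -0.25 to 0.17 for Tmem143, -0.22 to 0.38 for Sergef, -0.41 to 0.07 for Saal1, -0.28 to 0.10 for Ldha, -0.40 to 0.06 for Tsen34, -0.18 to 0.59 for Tcf12, -0.95 to 0.25 for Tcf4, -0.24 to 0.03 for Nfic, -0.38 to 0.02 for Smarcb1, -0.17 to 0.06 for Cdk1 and -0.17 to 0.02 for Pcbp2.

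Deviations of same-numbered libraries correlated at -0.18, 0.51 and 0.42, and Gmppb-KO replicate 1 correlated best with wild-type replicate 2 (0.29). These correlations depend on each other and do not settle whether the replicate numbers pair the samples. The main test took the samples as unpaired, and the block value above is given only as an alternative. With 3 libraries a group and 6 to 10 Myod1 reads per Gmppb-KO library, differences among Gmppb-KO libraries were not detectable at this depth.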
